A study of Mus musculus with 9 samples.

Results

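The network of cyclins, cyclin-dependent kinases (CDKs), E2F factors and retinoblastoma (RB) family proteins was followed through 36 genes in mouse pancreatic stellate cells, the fibroblast-like cells of the pancreas. The genes were taken by name: cyclins D, E, A, B and F with their kinases, the RB family, the E2F factors and their dimer partners, the CDC25 phosphatases, the CDK-inhibitory kinases, the mitotic transcription factors and Skp2. Each of the 36 symbols matched 1 of 49315 counted gene identifiers, and all 36 passed the filter on low counts, with a lowest count of 79 in any library. The 9 poly-A RNA-seq libraries came from C57BL6 stellate cells that had outgrown spontaneously in culture and that all carried lentiviral Cas9 and a guide RNA under puromycin selection, used as polyclonal populations. R26 normoxia (n = 3) had the control guide R26-sg1 and 20% O2, R26 hypoxia (n = 3) had the same guide and 0.5% O2, and HIF1a-ko hypoxia (n = 3) had the guide HIF1a-sg2 and 0.5% O2. Low or normal oxygen lasted 48 h. Cells with HIF1a-sg2 at 20% O2 were not analysed here, so an effect of the guide and a difference the HIF1a-ko population had before low oxygen cannot be told apart. Nothing in the labels says whether libraries of a group were grown apart, and the p-values then speak only to the spread among these libraries, possibly a technical one.

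In a dividing cell, mitogens raise the D-type cyclins, which with Cdk4 and Cdk6 phosphorylate RB proteins and free the E2F factors. Activator E2Fs then switch on cyclin E and the genes of DNA replication, while the atypical repressors E2F7 and E2F8, themselves E2F targets, shut that wave down. Later, B-MYB and FOXM1, working with the MuvB complex, switch on cyclins A and B, Cdk1 and other mitotic genes, and CDC25 phosphatases remove the inhibitory phosphates that Wee1 and Pkmyt1 place on CDKs. Stellate cells are largely out of cycle in the healthy pancreas and divide when activated. In bulk RNA, fewer cells in a phase and less RNA per cell cannot be told apart.

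Promoter words known from this network are shown for 6 members, because they differ in which words they hold. The stretches are the bases before the RefSeq start (build GRCm38.p6) that lie outside the gene's GENCODE span. Capitals mark, on either strand, the E2F words (TTTCCCGC, TTTGCCGC, TTTCGCGC or TTTGGCGC), the cell cycle homology region words, CHR (TTTGAA or TTCGAA), and CCAAT, the box bound by NF-Y. In Cdk4 the capitals mark instead the core word of the hypoxia response element, HRE (ACGTG or GCGTG), and CACGTG holds ACGTG on both strands. Rbl1, Cdk1, E2f8 and Ccnb2 also hold HRE words in their stretches, which were left in lower case.
Rbl1, chr2:157204535-157204784, minus strand: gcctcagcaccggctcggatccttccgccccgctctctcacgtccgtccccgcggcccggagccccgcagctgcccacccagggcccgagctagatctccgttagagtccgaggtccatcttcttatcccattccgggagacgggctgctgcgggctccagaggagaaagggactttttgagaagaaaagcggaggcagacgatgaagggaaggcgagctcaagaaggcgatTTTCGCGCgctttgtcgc
E2f7, chr10:110745189-110745438, plus strand: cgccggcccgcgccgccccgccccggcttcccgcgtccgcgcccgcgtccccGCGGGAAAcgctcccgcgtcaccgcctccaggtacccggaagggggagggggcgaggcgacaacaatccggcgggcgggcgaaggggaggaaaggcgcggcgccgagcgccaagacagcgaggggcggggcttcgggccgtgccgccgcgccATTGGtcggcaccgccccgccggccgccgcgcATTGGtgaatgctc
Cdk1, chr10:69352939-69353162, minus strand: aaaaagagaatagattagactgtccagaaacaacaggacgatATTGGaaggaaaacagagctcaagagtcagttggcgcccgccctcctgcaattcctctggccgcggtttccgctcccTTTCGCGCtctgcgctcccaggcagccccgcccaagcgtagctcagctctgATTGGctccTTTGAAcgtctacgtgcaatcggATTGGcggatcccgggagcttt
E2f8, chr7:48881597-48881846, minus strand: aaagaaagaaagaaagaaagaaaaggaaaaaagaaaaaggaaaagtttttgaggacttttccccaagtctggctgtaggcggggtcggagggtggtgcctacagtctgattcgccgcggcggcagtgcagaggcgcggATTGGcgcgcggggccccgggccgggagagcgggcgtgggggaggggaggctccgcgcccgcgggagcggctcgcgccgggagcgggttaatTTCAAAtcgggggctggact
Ccnb2, chr9:70421555-70421804, minus strand: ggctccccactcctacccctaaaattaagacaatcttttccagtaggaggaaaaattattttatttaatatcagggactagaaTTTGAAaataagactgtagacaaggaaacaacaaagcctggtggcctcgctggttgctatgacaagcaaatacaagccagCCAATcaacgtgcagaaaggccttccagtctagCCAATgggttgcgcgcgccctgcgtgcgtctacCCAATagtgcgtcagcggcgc
Cdk4, chr10:127063285-127063533, plus strand: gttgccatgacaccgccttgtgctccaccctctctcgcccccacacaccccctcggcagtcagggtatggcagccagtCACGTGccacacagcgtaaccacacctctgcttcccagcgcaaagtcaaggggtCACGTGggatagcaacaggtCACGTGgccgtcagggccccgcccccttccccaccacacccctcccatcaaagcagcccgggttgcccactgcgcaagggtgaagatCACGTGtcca

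Rbl1 carries its E2F word 18 bases before the start, E2f7 carries it 198 bases before, and Cdk1 carries it 131 bases before. E2f8 and Ccnb2 hold no E2F word in these bases but hold a CHR word, 20 and 167 bases before the start. Cdk1 holds both kinds, with a CHR word 71 bases before the start between CCAAT boxes at 80 and 48. Outside the printed stretches, Cdk1 held another CHR word 15 bases before the RefSeq start, and Ccnb2 held another 4 bases after it. Of the 24 members with a RefSeq window (250 bases before to 50 after the start), 8 held an E2F word (33.3%): Cdc25a, Cdk1, Cdk2, E2f2, E2f3, E2f7, Rbl1 and Tfdp1. Of all 27025 genes with such windows, 2.605% held one. A CHR word was present in 10 of the 24 (41.7%), against 21.7% of all genes, CCAAT in 14 (58.3%), against 41.1%, and an HRE word in 19 (79.2%), against 46.7%. Cdk4 held CACGTG at 172, 118, 98 and 11 bases before its start. Each matches an HRE word only through the ACGTG within it, and which factor binds there, if any, was not tested. These shares are descriptions of short words and were not tested.

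Hif1a, the targeted gene and the oxygen-regulated subunit of the HIF-1 factor, was checked first. Levels are in CPM, counts scaled to 1000000 per library with TMM factors. The R26 normoxia libraries had 194, 192 and 225 CPM of Hif1a, the R26 hypoxia libraries 178, 169 and 207, and the HIF1a-ko hypoxia libraries 123, 117 and 125. The HIF1a-ko libraries lay below every other library, 1.52-fold under R26 hypoxia (adjusted p = 0.00036). As background, a cut that shifts the reading frame need not lower the mRNA. In low oxygen Hif1a missed the test (-0.14 ± 0.09, log2 fold change with its standard error, SE; adjusted p = 0.28) and passed with the replicate number as a block (-0.12, adjusted p = 0.017). Total counts ran from 43837809 to 107840223, and each group had 1 deeper library, with at least 88451200: replicate 3 in both R26 groups and replicate 1 in HIF1a-ko hypoxia. With this depth class as a term, Hif1a was also called lower in low oxygen (-0.14, adjusted p = 0.043). Of 13 stellate or fibroblast markers, 12 reached 1 CPM in a library and Fap did not in any, and Col1a2, the highest of them, was between 3468 and 6970 CPM. The summed level of these markers moved with the group. It was 17720 to 19433 CPM in R26 normoxia, 19951 to 21501 in R26 hypoxia and 13595 to 14058 in HIF1a-ko hypoxia. Its part in the results below was not tested. The markers did not all move with this sum. Of the 13, 4 rose and 2 fell in low oxygen, where 12.8% and 12.4% of all genes did. From R26 to HIF1a-ko hypoxia 1 rose and 6 fell, where 22.0% and 23.8% of all genes did. Summed epithelial markers moved with group and depth: they were 16.7 to 72.0 CPM in R26 normoxia, 47.8 to 109 in R26 hypoxia and 15.5 to 61.3 in HIF1a-ko hypoxia, and 58.3 to 109 in the 6 less deep libraries against 15.5 to 47.8 in the deeper ones. Of these 7 markers, 2 rose in low oxygen and 2 fell from R26 to HIF1a-ko hypoxia. By the same depth split, summed leukocyte markers were 28.3 to 46.7 and 9.36 to 17.5, and their part was not tested either. Summed acinar and islet markers were 10.7 to 14.9 CPM in R26 normoxia, 10.7 to 12.9 in R26 hypoxia and 4.41 to 6.82 in HIF1a-ko hypoxia. By group, summed endothelial markers were 9.96 to 16.8, 7.41 to 15.9 and 11.9 to 21.3. They too split by depth, at 13.8 to 21.3 in the 6 less deep libraries against 7.41 to 11.9 in the deeper ones, and their part was not tested. Cpa1, Amy2a5, Ptf1a, Ins1, Ins2, Cd3e and Cd79a stayed under 1 CPM in all 9. Krt19, Lyz2, Egfl7 and Cela1 led the epithelial, leukocyte, endothelial and acinar or islet lists, with at most 63.7, 30.7, 6.92 and 12.7 CPM in a library.

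Low oxygen in the R26 cells moved the D-type cyclins in different directions. Against R26 normoxia, 5 of 36 rose (Ccnd3, Rbl2, E2f1, Ccnb2 and Cdc25b) and 3 fell (Ccnd1, Cdk4 and Skp2). Of all 18211 genes tested, 12.8% rose and 12.4% fell in this comparison, and the share of members called in either direction, 22.2%, was near that background. With the replicate number as a block, 11 members rose and 7 fell, where 22.1% and 19.6% of the 17387 genes in that fit did. In the HIF1a-ko hypoxia cells, 30 of 36 members rose against R26 hypoxia, where 22.0% of all genes did, and 3 fell (Ccnd3, Rbl2 and Tfdp2), where 23.8% of all genes did. Against R26 normoxia 31 rose (19.5% of all genes did) and 0 fell (21.9% of all genes did); no member was lower at an unadjusted p under 0.05 in this edgeR fit or with DESeq2, and Tfdp2 was called lower with the depth class as a term (-0.16, adjusted p = 0.015). The median log2 fold change of the 36 was -0.01, 0.93 and 0.91 in the 3 comparisons, beside -0.01, -0.02 and -0.01 over all genes. The comparisons share libraries, and their values are given side by side for that reason.

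**Figure D1:**
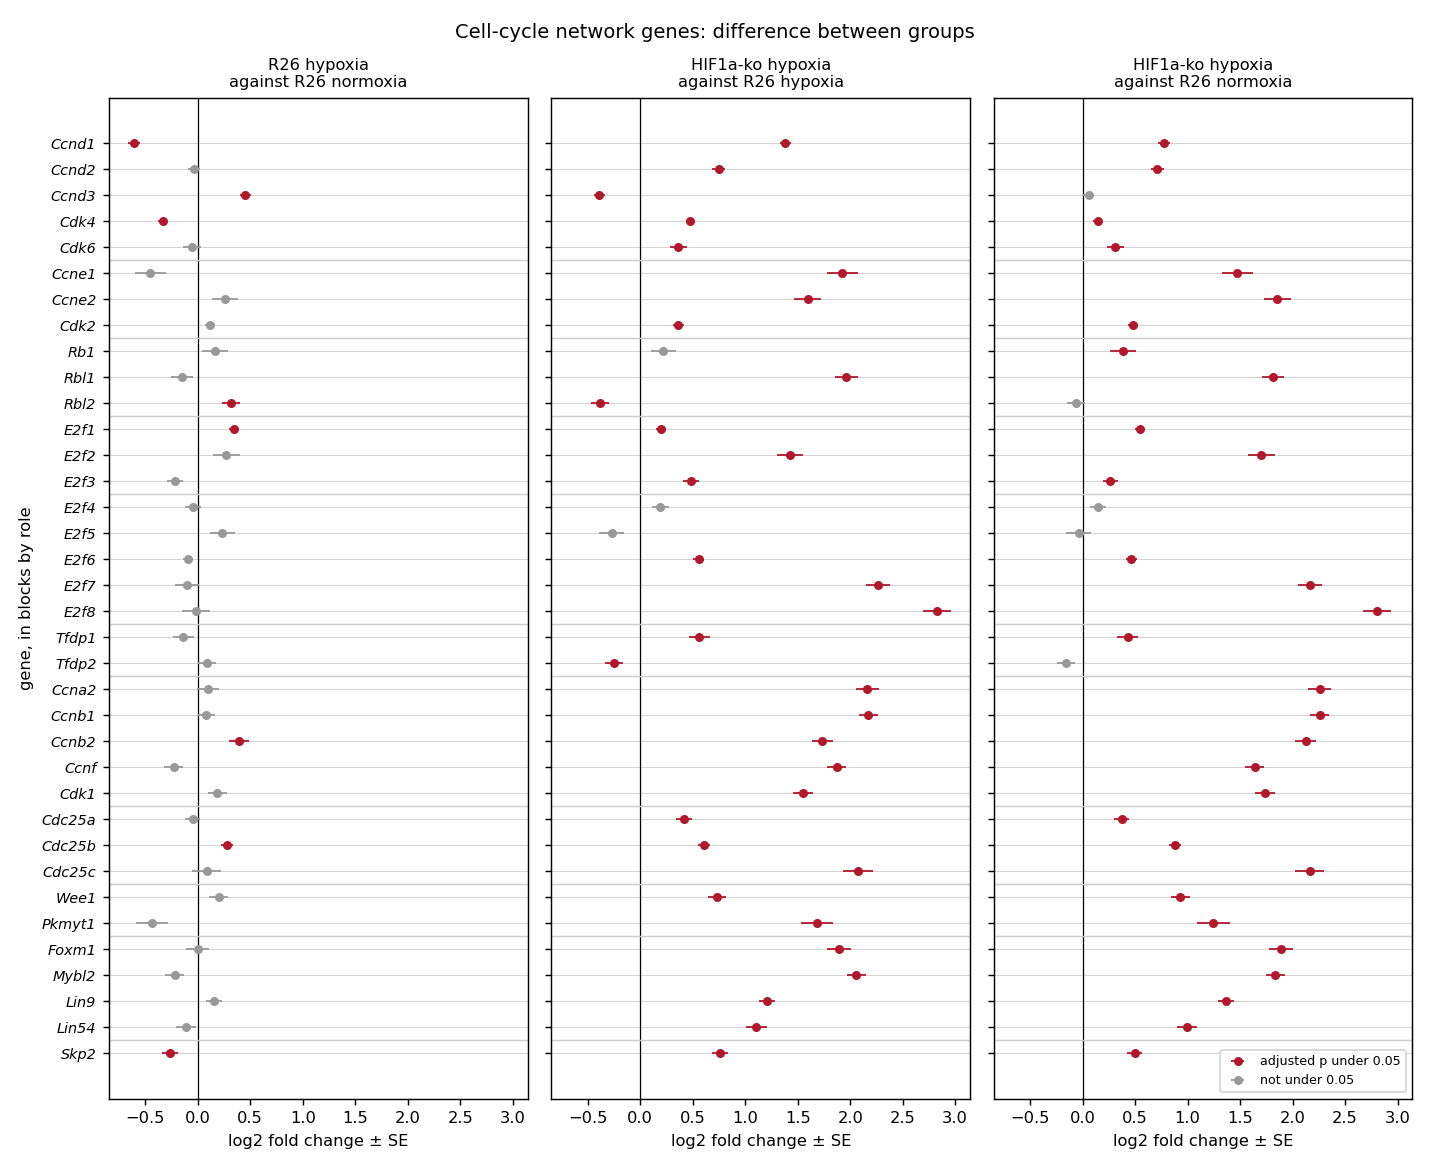
Log2 fold change of each of the 36 genes with its standard error (SE), in blocks by role, in the 3 comparisons; red marks an adjusted p under 0.05. In the middle panel 30 genes lie right of 0 in red, whereas 28 of 36 are grey in the left panel.

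The D-type cyclins, the mitogen-sensing arm of the network, were counted at high levels in all libraries and did not move together. Ccnd1 stood at 159, 158 and 149 CPM in the R26 normoxia libraries, 105, 96.6 and 104 in those of R26 hypoxia, and 263, 252 and 281 in those of HIF1a-ko hypoxia. No library of a group overlapped another group, with R26 hypoxia lowest and HIF1a-ko hypoxia highest. Ccnd1 fell 1.52-fold in low oxygen (log2 fold change -0.61 ± 0.05, SE; adjusted p = 8.3e-05) and was 2.61-fold higher in HIF1a-ko than in R26 hypoxia (1.38 ± 0.06; adjusted p = 1.5e-07). Ccnd2 stood at 358, 359 and 389 CPM in the R26 normoxia libraries, 347, 350 and 382 in those of R26 hypoxia, and 620, 567 and 623 in those of HIF1a-ko hypoxia. Its R26 groups overlapped (adjusted p = 0.75), and the HIF1a-ko libraries stood apart above them, at 1.68-fold over R26 hypoxia (adjusted p = 9.4e-06).

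Ccnd3 ran the opposite way from Ccnd1. It stood at 88.9, 90.2 and 90.8 CPM in the R26 normoxia libraries, 123, 121 and 125 in those of R26 hypoxia, and 99.7, 86.2 and 95.4 in those of HIF1a-ko hypoxia. It rose 1.37-fold in low oxygen (adjusted p = 0.00035) and was 1.31-fold lower in HIF1a-ko than in R26 hypoxia (adjusted p = 0.00025), where its libraries spanned the level of R26 normoxia (log2 fold change 0.06 ± 0.05, adjusted p = 0.41). Per kilobase of exon, where genes can be set side by side, Ccnd1 made up 40.0% ± 1.76 (SD, n = 3) of the summed D-type cyclin level in R26 normoxia, 29.3% ± 1.02 in R26 hypoxia and 43.0% ± 0.90 in HIF1a-ko hypoxia. Ccnd3 made up 12.4% ± 0.09, 19.0% ± 0.38 and 8.14% ± 0.34, and Ccnd2 47.6% ± 1.79, 51.8% ± 1.23 and 48.9% ± 0.57. With the longest transcript as the length, the Ccnd3 shares became 19.0%, 27.5% and 12.7%, over 1.5 times the first values in R26 normoxia and HIF1a-ko hypoxia, with the order of the groups the same. The Ccnd2 shares became 47.3%, 49.0% and 50.02%, which puts HIF1a-ko hypoxia and not R26 hypoxia highest, with libraries of these groups overlapping.

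Their kinase partners moved less. Cdk4 stood at 367, 367 and 375 CPM in the R26 normoxia libraries, 303, 281 and 295 in those of R26 hypoxia, and 410, 401 and 412 in those of HIF1a-ko hypoxia. These groups did not overlap: Cdk4 fell 1.26-fold in low oxygen (adjusted p = 0.00056) and was 1.39-fold higher in HIF1a-ko than in R26 hypoxia (adjusted p = 1.7e-05). Against R26 normoxia it was 1.10-fold higher (adjusted p = 0.023), a call that ended without R26 normoxia replicate 1 (adjusted p = 0.079) or without replicate 2 (0.075). Cdk6, the other D-cyclin kinase, was at 37.9 to 46.1 CPM over the R26 libraries, where the groups overlapped, and at 54.7, 51.7 and 48.2 in HIF1a-ko hypoxia (1.29-fold over R26 hypoxia, adjusted p = 0.0054). Its rise over R26 normoxia (1.24-fold, adjusted p = 0.014) also ended without R26 normoxia replicate 1 (0.057) or 2 (0.055). In every group Cdk4 was the highest of the 36 genes per kilobase, at 114 ± 1.42, 90.2 ± 3.47 and 126 ± 1.79 CPM per kb, and Cdk6 was at 2.97 ± 0.28, 2.86 ± 0.21 and 3.68 ± 0.23.

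**Figure D2:**
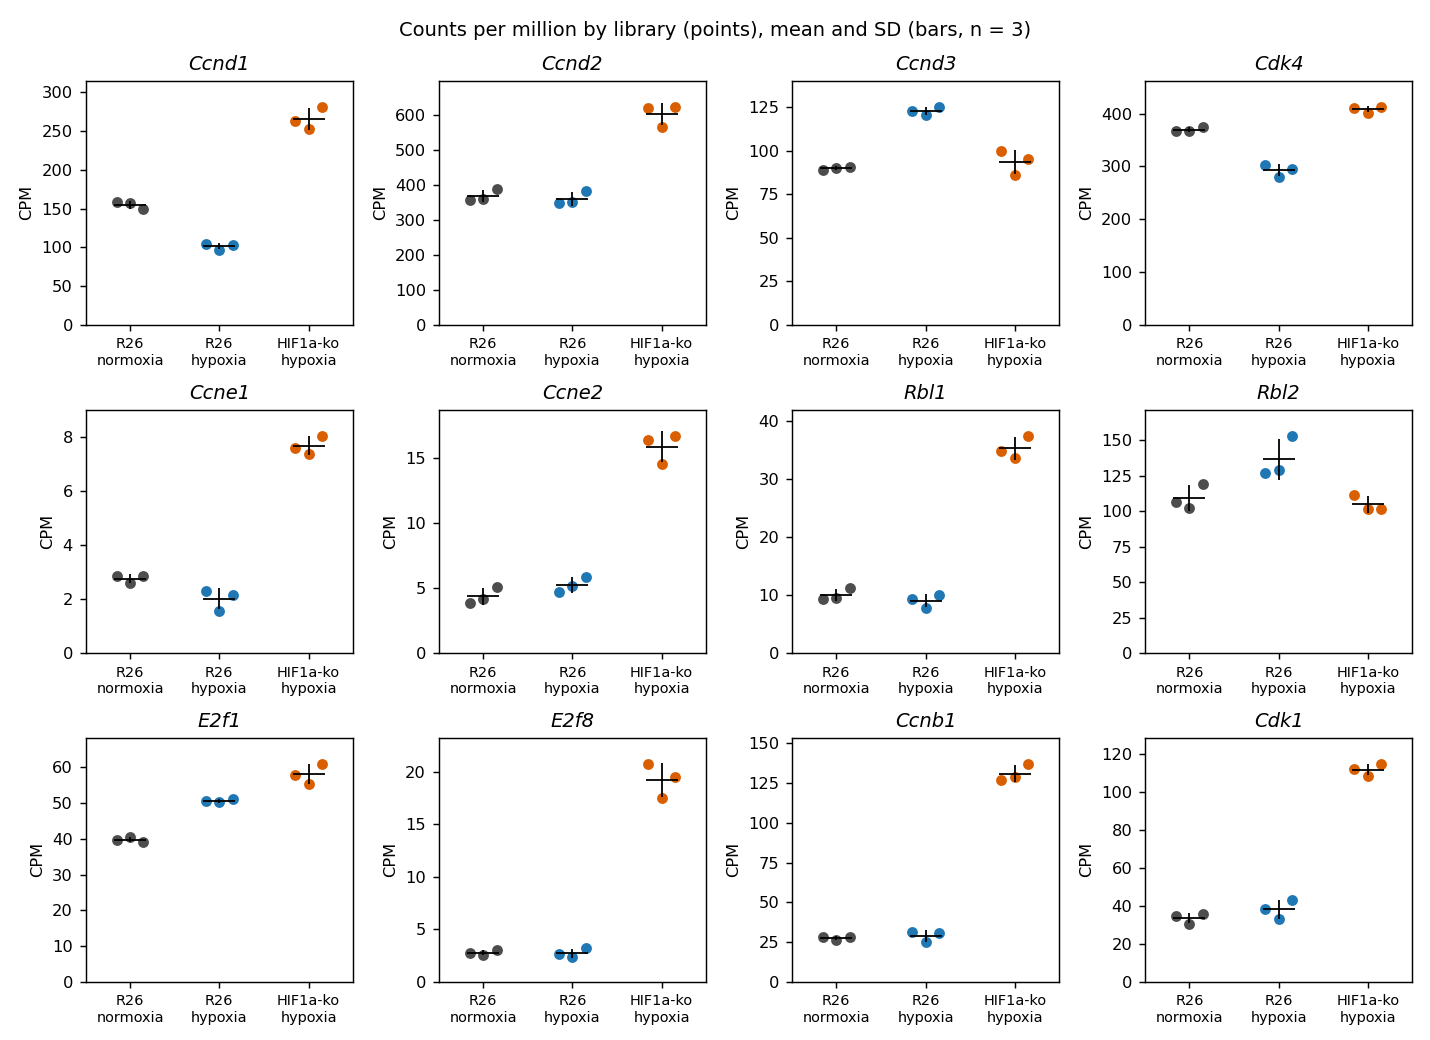
CPM of 12 of the genes by library (points; the 3 libraries of a group side by side), with the group mean and SD (black bars, n = 3) and the vertical axis starting at 0. Ccnd1 is lower and Ccnd3 higher in R26 hypoxia than in R26 normoxia, whereas Ccne1, Rbl1, E2f8, Ccnb1 and Cdk1 are high in the 3 HIF1a-ko libraries alone.

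Cyclin E, which with Cdk2 opens S phase, is encoded by a pair of genes. Ccne1 stood at 2.85, 2.58 and 2.85 CPM in the R26 normoxia libraries, 2.31, 1.57 and 2.16 in those of R26 hypoxia, and 7.60, 7.36 and 8.04 in those of HIF1a-ko hypoxia. Ccne2 was at 3.86, 4.18 and 5.08, then 4.70, 5.15 and 5.87, then 16.4, 14.5 and 16.7. The R26 groups did not overlap for Ccne1 and did for Ccne2, and neither difference passed the test (log2 fold changes -0.45 ± 0.15, adjusted p = 0.051, and 0.26 ± 0.13, adjusted p = 0.18). With the replicate number as a block the pair split, Ccne1 lower (-0.44, adjusted p = 0.034) and Ccne2 higher (0.28, adjusted p = 0.042). Ccne1 was also lower with DESeq2 (adjusted p = 0.035), with the depth class as a term (0.021) or without R26 hypoxia replicate 1 (0.040). Both rose in HIF1a-ko against R26 hypoxia, by 3.80-fold (adjusted p = 6.3e-06) and 3.02-fold (adjusted p = 8.2e-06). On the log2 scale of CPM per kb, Ccne2 exceeded Ccne1 by 0.26 ± 0.20 (SD, n = 3) in R26 normoxia, 1.00 ± 0.35 in R26 hypoxia and 0.65 ± 0.07 in HIF1a-ko hypoxia, and the libraries of the R26 groups did not overlap in this difference. Cdk2 moved less than either cyclin: 34.5 to 36.6, 36.8 to 40.3 and 48.9 to 51.4 CPM, a 1.29-fold rise over R26 hypoxia (adjusted p = 0.00028). In low oxygen Cdk2 passed with the block alone (0.14, adjusted p = 0.031, against 0.13 in the fit of all 9 libraries).

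The members of the RB family, which hold E2Fs in check, took different courses. Rbl1, encoding p107, the family member that E2Fs induce in cycling cells, stood at 9.26, 9.59 and 11.3 CPM in the R26 normoxia libraries, 9.31, 7.84 and 9.97 in those of R26 hypoxia, and 34.9, 33.6 and 37.5 in those of HIF1a-ko hypoxia. The R26 groups overlapped (adjusted p = 0.36), and the HIF1a-ko libraries were 3.90-fold above R26 hypoxia (adjusted p = 7.7e-07). Rbl2, encoding p130, the member that prevails in quiescent cells, was at 107, 102 and 119, then 127, 129 and 153, then 111, 102 and 101 CPM. It rose 1.25-fold in low oxygen (adjusted p = 0.023) and was 1.30-fold lower in HIF1a-ko than in R26 hypoxia (adjusted p = 0.0049), falling where Rbl1 rose. The rise of Rbl2 in low oxygen ended without R26 normoxia replicate 1 (adjusted p = 0.081), R26 normoxia replicate 2 (0.088) or R26 hypoxia replicate 3 (0.052). The log2 ratio of Rbl1 to Rbl2 per kilobase was -3.11 ± 0.07 (SD, n = 3), -3.58 ± 0.14 and -1.23 ± 0.12, with no overlap between groups and Rbl2 the higher gene in all 9 libraries.

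Rb1 itself, at 20.2 to 24.4, 20.8 to 29.1 and 28.0 to 31.5 CPM, overlapped between the R26 groups and between the hypoxia groups (log2 fold changes 0.16 ± 0.12 and 0.22 ± 0.12, adjusted p = 0.38 and 0.17). It was 1.31-fold higher in HIF1a-ko hypoxia than in R26 normoxia (adjusted p = 0.029). That call was lost without R26 normoxia replicate 1 (0.070) or 2 (0.10), or without HIF1a-ko hypoxia replicate 1 (0.075) or 2 (0.055). Rb1 became called higher against R26 hypoxia without R26 hypoxia replicate 3 (adjusted p = 0.035), with the depth class as a term (0.023) or in the 6 less deep libraries (0.021).

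Among the activators, E2f1 and E2f2 followed different courses. E2f1 stood at 39.8, 40.5 and 39.1 CPM in the R26 normoxia libraries, 50.5, 50.2 and 51.1 in those of R26 hypoxia, and 57.9, 55.5 and 60.9 in those of HIF1a-ko hypoxia. It rose at both steps without overlap, by 1.27-fold in low oxygen (adjusted p = 0.00064) and by 1.15-fold from R26 to HIF1a-ko hypoxia (adjusted p = 0.0056). E2f2, which was scarcer, was at 1.80 to 2.18, 2.24 to 2.56 and 5.81 to 6.91 CPM; the groups did not overlap, the first step missed the test (0.27 ± 0.13, adjusted p = 0.15), and the second was 2.69-fold (adjusted p = 1.5e-05). E2f3 was at 25.4, 23.9 and 27.3, then 20.7, 21.2 and 23.9, then 32.1, 30.0 and 29.9 CPM. The lower level in R26 hypoxia did not pass (-0.22 ± 0.07, adjusted p = 0.059), and the rise over it in HIF1a-ko hypoxia was 1.40-fold (adjusted p = 0.00052). The lower level passed with DESeq2 (adjusted p = 0.049), the replicate block (0.013) or the depth class as a term (0.0050). It also passed in the 6 less deep libraries (0.036) or without R26 hypoxia replicate 3 (0.022). E2f3's 1.20-fold rise over R26 normoxia (adjusted p = 0.017) ended without R26 normoxia replicate 1 (0.053) or 2 (0.064).

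The atypical repressors E2f7 and E2f8, which close the E2F wave after S phase begins, showed the 2 largest log2 fold changes of the 36 in HIF1a-ko against R26 hypoxia. E2f8 stood at 2.71, 2.53 and 2.99 CPM in the R26 normoxia libraries, 2.63, 2.31 and 3.17 in those of R26 hypoxia, and 20.7, 17.5 and 19.5 in those of HIF1a-ko hypoxia. E2f7 was at 6.03, 5.92 and 6.74, then 5.55, 5.01 and 6.84, then 27.4, 27.4 and 29.3 CPM. Both overlapped between the R26 groups (adjusted p = 0.94 and 0.60), whereas the HIF1a-ko libraries stood 7.08-fold (2.82 ± 0.14, adjusted p = 3.6e-07) and 4.81-fold (2.27 ± 0.12, adjusted p = 5.2e-07) above R26 hypoxia. Relative to E2f1 per kilobase, E2f8 was at a log2 ratio of -4.65 ± 0.15 (SD, n = 3), -5.03 ± 0.22 and -2.38 ± 0.10, and E2f7 at -4.19 ± 0.13, -4.65 ± 0.22 and -2.56 ± 0.03. The repressors that serve resting cells did not share this: E2f4 was at 32.6 to 39.8 CPM over the R26 libraries and 38.4 to 42.8 in HIF1a-ko hypoxia (0.19 ± 0.08, adjusted p = 0.066), and E2f5 at 9.03 to 13.2 and 8.75 to 10.2 (-0.27 ± 0.12, adjusted p = 0.088). E2f4 became called without R26 hypoxia replicate 1 (adjusted p = 0.040), with DESeq2 (0.035) and with the depth class as a term (0.032). E2f5 missed the test in low oxygen (0.23 ± 0.12, adjusted p = 0.19) and passed with the replicate block (0.25, adjusted p = 0.016) or with a term for depth (0.021), which also brought its fall from R26 to HIF1a-ko hypoxia past the test (-0.27, 0.0055). E2f6, a repressor that acts through Polycomb proteins, rose 1.47-fold over R26 hypoxia (22.2 to 23.9 against 33.3 to 34.6 CPM; adjusted p = 1.8e-05).

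The dimer partners, which E2Fs need to bind DNA, moved in opposite directions. Tfdp1 was at 77.6 to 98.3 CPM in R26 hypoxia and 138, 116 and 141 in HIF1a-ko hypoxia (1.48-fold higher, adjusted p = 0.0011). It shares 16.8% of its exon sequence with genes elsewhere, the most with Gm7390. Tfdp2 was at 92.3, 89.8 and 107 CPM in R26 hypoxia and 86.2, 73.1 and 83.6 in HIF1a-ko hypoxia, a 1.19-fold fall (adjusted p = 0.042). The Tfdp2 call was lost when any of 6 libraries was left out: R26 normoxia 1 or 2 (0.054 and 0.055), R26 hypoxia 1 or 3 (0.055 and 0.13), or HIF1a-ko hypoxia 2 or 3 (0.15 and 0.091). With the replicate block Tfdp2 was higher in low oxygen (0.11, adjusted p = 0.029).

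The cyclins of S phase and mitosis were higher in the HIF1a-ko hypoxia libraries than in every R26 library. Ccna2, which serves S phase and G2, stood at 17.9, 16.2 and 20.4 CPM in the R26 normoxia libraries, 19.7, 16.8 and 21.7 in those of R26 hypoxia, and 88.5, 83.1 and 89.6 in those of HIF1a-ko hypoxia. Ccnb1, the main mitotic cyclin, was at 27.9, 26.1 and 28.1, then 31.6, 24.8 and 30.6, then 127, 129 and 137 CPM. For both, the R26 groups overlapped (adjusted p = 0.59 and 0.56) and HIF1a-ko hypoxia lay 4.47-fold (adjusted p = 4.6e-07) and 4.51-fold (adjusted p = 1.5e-07) above R26 hypoxia. Ccnb1 shares 23.4% of its exon sequence, in words of 50 bases, with genes elsewhere, the most with the pseudogene Ccnb1-ps. How the deposited counting treated such reads is not given in the sources used here.

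Ccnb2, which shares no such word with other transcripts, stood at 21.4, 17.5 and 18.5 CPM in the R26 normoxia libraries, 28.0, 21.7 and 25.5 in those of R26 hypoxia, and 81.3, 82.8 and 86.0 in those of HIF1a-ko hypoxia. Its groups did not overlap. It was the only cyclin of this block to pass in low oxygen (1.31-fold, 0.39 ± 0.10, adjusted p = 0.018; lost without R26 normoxia replicate 2, 0.071, or R26 hypoxia replicate 1, 0.054), and it was 3.32-fold higher in HIF1a-ko than in R26 hypoxia (adjusted p = 9.8e-07). Ccnf, an F-box cyclin that recruits substrates to the SCF ubiquitin ligase, was at 16.8 to 18.5, 12.9 to 16.9 and 53.4 to 57.1 CPM. Its fall in low oxygen passed with the replicate block (-0.21, adjusted p = 0.035) or without R26 hypoxia replicate 3 (-0.33, 0.021). The fall also passed with the depth class as a term (-0.23, adjusted p = 0.029) or in the 6 less deep libraries (-0.31, 0.016). It did not pass in the fit of all 9 libraries with group as the only term (-0.23 ± 0.09, adjusted p = 0.10). Cdk1, the kinase of cyclins A and B, was at 34.5, 30.5 and 35.4, then 38.2, 32.9 and 43.2, then 112, 108.4 and 115 CPM. It was 2.93-fold higher in HIF1a-ko than in R26 hypoxia (adjusted p = 1.5e-06), and its small rise in low oxygen (0.19 ± 0.09, adjusted p = 0.19) was called with the replicate block (0.20, adjusted p = 0.0084) or without R26 hypoxia replicate 2 (0.28, 0.038).

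Per kilobase, the mitotic genes also climbed in the order of levels. Ccnb2 ranked 8 of 36 in R26 normoxia (12.5 ± 1.31 CPM per kb; SD, n = 3), 6 in R26 hypoxia (16.4 ± 2.06) and 4 in HIF1a-ko hypoxia (54.5 ± 1.59), where its neighbour Ccnd1, at 56.4 ± 3.08, lay within their spread. Ccnb1 went from 12 to 12 to 6, and Ccna2 from 18 to 17 to 8. Cdk1 was below Cdk4 in each library, by a log2 ratio of -4.07 ± 0.11, -3.55 ± 0.16 and -2.47 ± 0.02 per kilobase. It was close to Cdk2 in the R26 groups (0.24 ± 0.12 and 0.30 ± 0.19) and above it in all 3 HIF1a-ko hypoxia libraries, by 1.46 to 1.56. With the longest transcript as the length, Cdk1 in R26 normoxia was below Cdk2 (7.65 against 10.9 CPM per kb). The order of genes by level, unlike a gene's change between groups, depends on the length used. At the low end stood E2f2, at rank 36 in all 3 groups, with 0.41 ± 0.04, 0.49 ± 0.03 and 1.33 ± 0.12 CPM per kb; in R26 hypoxia E2f8 (0.50 ± 0.08) did not differ from it beyond their spread.

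The phosphatases that release CDKs split by gene. Cdc25c, the mitotic form, was at 3.07 to 3.76, 2.94 to 4.14 and 15.2 to 16.3 CPM, 4.21-fold higher in HIF1a-ko than in R26 hypoxia (2.07 ± 0.14, adjusted p = 2.8e-06). Cdc25a, which acts from G1/S on, was at 28.3 to 32.4, 27.4 to 31.2 and 38.0 to 42.5 CPM (1.34-fold, adjusted p = 0.0013). Cdc25b, which starts the entry into mitosis, was at 43.2, 41.2 and 42.4, then 47.9, 50.9 and 54.6, then 79.2, 74.0 and 80.5 CPM. Its groups did not overlap, with rises of 1.21-fold in low oxygen (adjusted p = 0.0069) and 1.52-fold from R26 to HIF1a-ko hypoxia (adjusted p = 2.2e-05).

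The kinases that oppose CDC25 rose with it in the HIF1a-ko hypoxia cells. Wee1 was at 18.2 to 19.3, 19.6 to 24.1 and 32.8 to 39.0 CPM (1.66-fold over R26 hypoxia, adjusted p = 0.00011). Pkmyt1, its membrane-bound relative, stood at 11.1, 12.0 and 12.9 CPM in the R26 normoxia libraries, 8.27, 7.52 and 10.7 in those of R26 hypoxia, and 33.5, 24.1 and 27.8 in those of HIF1a-ko hypoxia (3.21-fold, adjusted p = 2.0e-05). Neither passed in low oxygen in the edgeR fit of all libraries with group as the only term (0.20 ± 0.09, adjusted p = 0.14, and -0.44 ± 0.15, adjusted p = 0.068). With the replicate block both did, in opposite directions: Wee1 higher (0.22, adjusted p = 0.021) and Pkmyt1 lower (-0.42, adjusted p = 0.0033), and Pkmyt1 also passed without R26 hypoxia replicate 3 (-0.61, 0.015). With the depth class as a term both passed too (Wee1 0.20, adjusted p = 0.027, and Pkmyt1 -0.44, 0.0010). Pkmyt1 was also lower with DESeq2 (-0.43, adjusted p = 0.027) and in the 6 less deep libraries (-0.53, 0.0017). Within each group Pkmyt1 was higher in the deeper library than in the mean of the less deep ones, by 0.17, 0.44 and 0.37 on the log2 scale.

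The mitotic transcription factors rose together between the hypoxia groups and did not pass in low oxygen. Foxm1 stood at 25.0, 22.9 and 27.6 CPM in the R26 normoxia libraries, 23.6, 22.7 and 29.1 in those of R26 hypoxia, and 97.4, 83.9 and 99.3 in those of HIF1a-ko hypoxia. Mybl2, which encodes B-MYB, was at 5.67, 6.99 and 6.59, then 5.35, 5.31 and 5.85, then 23.2, 23.2 and 22.3 CPM. Both overlapped between the R26 groups and stood apart in HIF1a-ko hypoxia, at 3.71-fold (1.89 ± 0.11, adjusted p = 1.2e-06) and 4.16-fold (2.06 ± 0.09, adjusted p = 2.2e-07) over R26 hypoxia. Mybl2 was lower in low oxygen by -0.30 without R26 normoxia replicate 1 (adjusted p = 0.037) and by -0.22 ± 0.09 with it (0.11). It shares 19.3% of its exon sequence with genes elsewhere, the most with the transcript Gm3320. The MuvB subunits Lin9 and Lin54, which bring these factors to CHR sites, were at 6.36 to 6.70 and 11.8 to 13.4 CPM in R26 hypoxia and at 14.2 to 15.8 and 23.9 to 29.7 in HIF1a-ko hypoxia (2.31-fold and 2.15-fold; adjusted p = 1.7e-06 and 1.4e-05). Skp2, the ubiquitin ligase subunit that targets CDK inhibitors, was at 17.0, 16.2 and 17.6, then 14.0, 12.9 and 15.3, then 24.5, 22.9 and 24.0 CPM. Its groups did not overlap: it rose 1.69-fold from R26 to HIF1a-ko hypoxia (adjusted p = 2.8e-05) and fell 1.20-fold in low oxygen (adjusted p = 0.027), a fall that was lost without R26 normoxia 1 or 3 (0.078 and 0.097), R26 hypoxia 1 or 2 (0.072 and 0.088) or HIF1a-ko hypoxia 3 (0.052), and in a fit of the R26 groups alone (0.062).

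**Figure D3:**
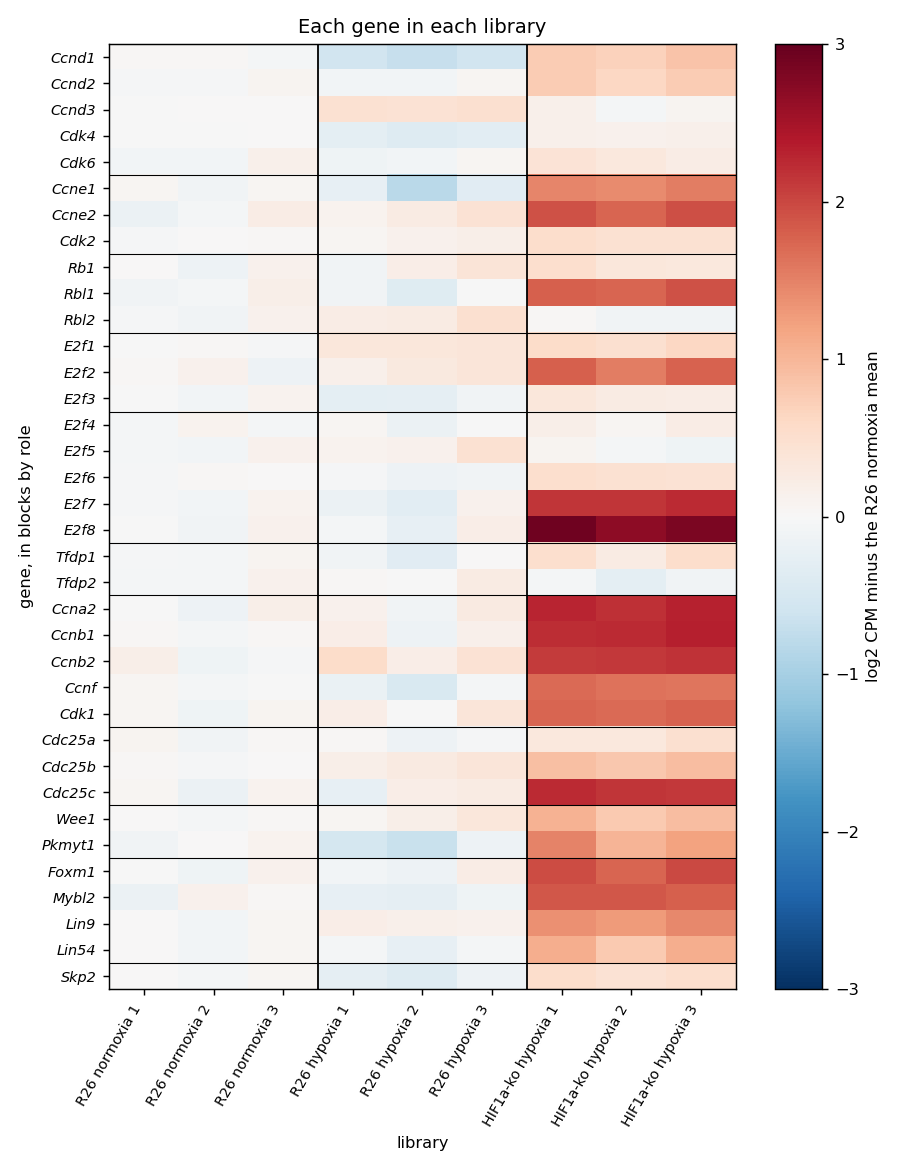
Each of the 36 genes (rows, in blocks by role) in each of the 9 libraries (columns), as log2 CPM minus the gene's mean over R26 normoxia. The 3 HIF1a-ko hypoxia columns are red for cyclins A, B and F, Cdk1, E2f7, E2f8, Foxm1 and Mybl2, and pale for Ccnd3, Rbl2, E2f4, E2f5 and Tfdp2.

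The G1 genes were then set against the genes of later phases, library by library, as the median over each list of log2 CPM minus the R26 normoxia mean. For the 5 G1 genes (Ccnd1, Ccnd2, Ccnd3, Cdk4 and Cdk6) the median was -0.13, -0.09 and 0.05 in R26 hypoxia and 0.40, 0.32 and 0.22 in HIF1a-ko hypoxia. For the 10 S and G2/M genes (Ccna2, Ccnb1, Ccnb2, Ccnf, Cdk1, Cdc25b, Cdc25c, Pkmyt1, Foxm1 and Mybl2) it was 0.02, -0.13 and 0.23, and then 1.91, 1.80 and 1.89. For the 11 G1/S genes it was -0.06, -0.25 and 0.14, and then 1.46, 1.42 and 1.55. These 11 were Ccne1, Ccne2, Cdk2, Rbl1, E2f1, E2f2, E2f3, E2f7, E2f8, Cdc25a and Skp2. In the HIF1a-ko hypoxia libraries the S and G2/M level exceeded the G1 level by 1.55 ± 0.10 (SD, n = 3), and in R26 hypoxia by 0.10 ± 0.11. All 10 S and G2/M genes and all 11 G1/S genes were higher in HIF1a-ko than in R26 hypoxia, and 4 of 5 G1 genes were, Ccnd3 being lower. Of all genes, 22.0% were higher and 23.8% lower there. The lists were chosen with earlier results known and leave out members, so these counts do not stand for whole phases. Of those left out, Rbl2 and Tfdp2 were lower, Rb1, E2f4 and E2f5 were not called, and E2f6, Tfdp1, Wee1, Lin9 and Lin54 were higher. In low oxygen alone, 2 of the 10 rose (Ccnb2 and Cdc25b), and 1 of the 11 rose and 1 fell (E2f1 and Skp2). Of the G1 genes 1 rose and 2 fell, where 12.8% of all genes rose and 12.4% fell. The levels above are descriptions of lists and carry no test of their own. R26 hypoxia 3, which was counted deeper than R26 hypoxia 1 and 2, had a higher median than both in each list.

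**Figure D4:**
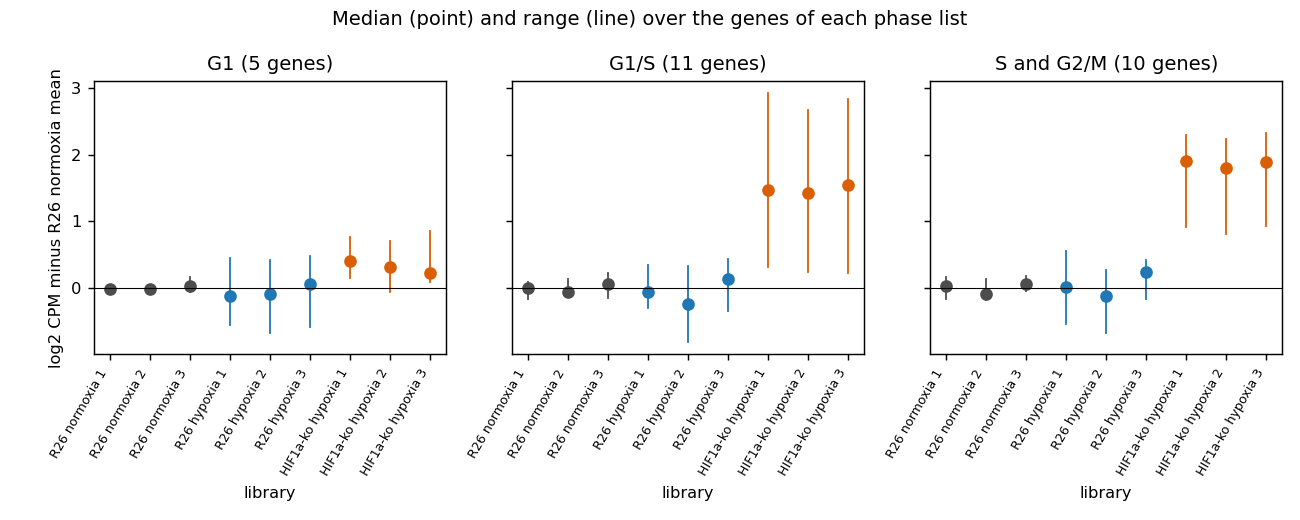
Median (point) and range (line) over the genes of the G1, G1/S and S and G2/M lists in each library, as log2 CPM minus the R26 normoxia mean. The 3 HIF1a-ko hypoxia libraries lie between 1.80 and 1.91 for S and G2/M genes and between 0.22 and 0.40 for G1 genes, and the R26 hypoxia libraries lie on both sides of 0 in all 3 panels.

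Targets of these factors were taken from textbook lists of replication and mitosis genes, and the lists were not tested against each other. Of 15 E2F targets in DNA replication, 9 fell and 0 rose in R26 hypoxia against R26 normoxia, where 12.4% and 12.8% of all genes did. Their median log2 fold change was -0.42. The 0 held with edgeR at an unadjusted p under 0.05 and with DESeq2. They were the helicase subunits Mcm2, Mcm3, Mcm4, Mcm5 and Mcm7, the nucleotide synthesis genes Rrm2 and Tyms, the polymerase clamp Pcna, and the origin licensing gene Cdc6. Of 14 FOXM1 and B-MYB targets in mitosis, 4 rose and 0 fell (Cenpf, Kif23, Ube2c and Mki67), with a median of 0.22, and all 14 had a positive log2 fold change. With the replicate block 9 rose, where 22.1% of all genes did. The count was 2 without R26 normoxia replicate 1 or without replicate 2 and 7 without R26 hypoxia replicate 2. In HIF1a-ko against R26 hypoxia all 15 and all 14 rose, where 22.0% of all genes did, with medians of 1.64 and 2.00. Against R26 normoxia all 15 and all 14 rose again, where 19.5% of all genes did, with medians of 1.22 and 2.28.

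Mcm5, a subunit of the replicative helicase, stood at 34.3, 34.7 and 37.7 CPM in the R26 normoxia libraries, 19.1, 17.1 and 20.5 in those of R26 hypoxia, and 122, 117 and 135 in those of HIF1a-ko hypoxia. The groups did not overlap, and Mcm5 fell 1.88-fold in low oxygen (adjusted p = 7.3e-05) and was 6.58-fold higher in HIF1a-ko than in R26 hypoxia (adjusted p = 5.5e-08). Cdc6 fell 1.48-fold and rose 7.03-fold in the same comparisons, and Rrm2, which makes deoxynucleotides, fell 1.54-fold and rose 4.79-fold. Among the mitotic targets, the checkpoint kinase gene Bub1 was at 9.34 to 11.2, 11.3 to 15.7 and 64.7 to 75.2 CPM. It rose 5.14-fold from R26 to HIF1a-ko hypoxia and missed the test in low oxygen (0.35 ± 0.12, adjusted p = 0.065). There Bub1 passed with DESeq2 (adjusted p = 0.024), the replicate block (0.0024), the depth class as a term (0.0145) or without R26 hypoxia replicate 2 (0.020). Aurkb and Top2a, which serve chromosome segregation, rose 4.82-fold and 4.80-fold from R26 to HIF1a-ko hypoxia. In low oxygen Top2a passed only with the block (0.26, adjusted p = 0.0010) or with depth handled (a term, 0.019, or the 6 less deep libraries, 0.049). The ratio of Mcm5 to Ccnb1 per kilobase, on the log2 scale, was 0.46 ± 0.07 (SD, n = 3) in R26 normoxia, -0.53 ± 0.10 in R26 hypoxia and 0.00 ± 0.06 in HIF1a-ko hypoxia, with no overlap between groups.

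**Figure D5:**
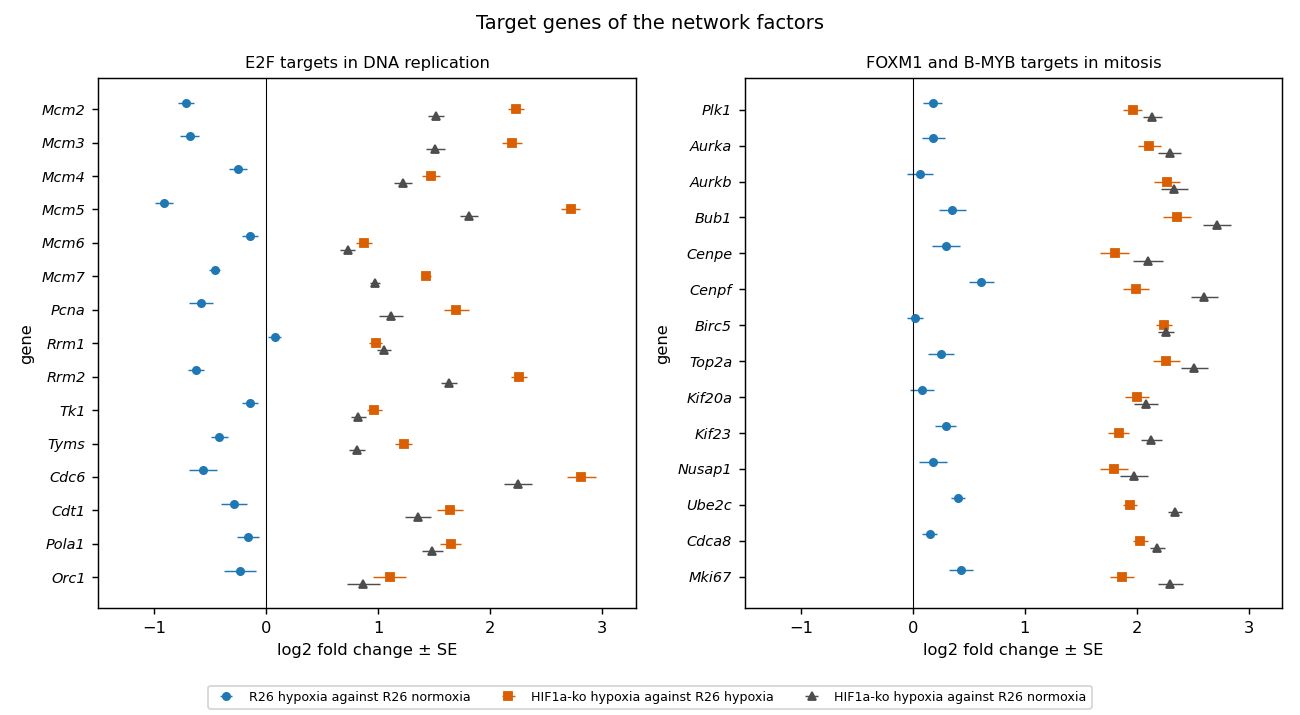
Log2 fold change with SE of 15 replication genes (left) and 14 mitosis genes (right) in the 3 comparisons, marked by colour and shape. In low oxygen alone (blue circles) 14 of 15 replication genes lie left of 0 and all 14 mitosis genes right of it, and in both HIF1a-ko comparisons every gene lies right of 0.

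Genes that act on the same machinery from outside are given for HIF1a-ko against R26 hypoxia, where 22.0% of all genes rose and 23.8% fell. Of 8 genes in a list of other MuvB and SCF subunits and CDK-binding proteins, 5 rose and 1 fell. The rises were led by the CDK-binding proteins Cks2 (1.90 ± 0.17, log2) and Cks1b, and by Lin52 (0.57 ± 0.09). The subunit that fell was the scaffold Cul1 (-0.17 ± 0.05, adjusted p = 0.030). Of 10 adaptors and regulators that degrade cyclins and E2Fs, 4 rose and 4 fell. The median log2 fold change of these 10 was -0.04, and the lowest was -0.66. The rises were led by the APC/C inhibitor Fbxo5 (1.96 ± 0.11), the ubiquitin-conjugating enzyme Ube2c (1.94 ± 0.06) and the APC/C activator Cdc20 (1.76 ± 0.07). Of the CDK-activating kinase, Ccnh rose (0.42 ± 0.05) and its partner Cdk7 fell (-0.39 ± 0.05), and both had fallen in low oxygen (-0.23 ± 0.05 each).

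Beside the same background, of 10 transcriptional and atypical cyclins 5 rose and 2 fell, and of 12 transcriptional and atypical CDKs, 1 rose and 5 fell, led by Cdk14 (-0.60 ± 0.06), Cdk5 (-0.37 ± 0.07) and Cdk9 (-0.36 ± 0.05). Ccng2, an atypical cyclin known to be raised in arrested cells, stood at 76.7, 76.2 and 78.4 CPM in the R26 normoxia libraries, 128, 121 and 131 in those of R26 hypoxia, and 65.3, 71.5 and 68.4 in those of HIF1a-ko hypoxia. It rose 1.65-fold in low oxygen and was 1.86-fold lower in HIF1a-ko than in R26 hypoxia. Ccnl2, a splicing-related cyclin, went the same ways (0.26 ± 0.05 and -0.67 ± 0.05), and Ccng1, a p53 target, rose against R26 hypoxia (0.67 ± 0.07) and missed the test in low oxygen (-0.08 ± 0.07, adjusted p = 0.48). Of 11 mitogen-responsive genes upstream of the D cyclins, 4 rose and 3 fell in low oxygen, where 12.8% and 12.4% of all genes did. In HIF1a-ko against R26 hypoxia 3 rose and 6 fell. Egr1, Fos and Junb, immediate early transcription factors, rose in low oxygen (0.91 ± 0.12, 1.54 ± 0.27 and 0.98 ± 0.10) and were lower in HIF1a-ko than in R26 hypoxia (-1.34 ± 0.12, -1.28 ± 0.27 and -1.26 ± 0.10).

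In low oxygen, with the depth class as a term 7 members fell, with the 6 less deep libraries 6, and without R26 hypoxia replicate 3 again 6. Of all genes, 3554 of 18211, 2655 of 18159 and 2151 of 18627 fell in these fits. Without R26 normoxia replicate 2 only 3 members rose, where 1732 of 18721 genes did. In HIF1a-ko against R26 hypoxia the counts stayed at 30 or 31 higher and 2 or 3 lower whichever library was left out. Of all genes, 3485 to 4186 rose and 3576 to 4214 fell in those fits. Several members overlap another gene on the opposite strand (Ccnd1 with LTO1 over 1100 bases, Rbl2 with Aktip and Gm45464 over 1585, Rb1 over 896), and the strand setting of the counting is not given in the sources used here.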

How the data were processed

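The deposited values are raw read counts per Ensembl gene for 9 libraries, made by the authors from poly-A RNA prepared with a NEBNext Ultra kit, per the labels' protocols. The submitters' processing notes name build GRCm38 and, with no order, DESeq2, featureCounts, STAR, Trimmomatic and bcl2fastq 2.17; strand setting, annotation release and treatment of multiply matching reads were not given in the sources used here. Identifiers were paired with GENCODE M21 genes (49056 of 49315; the rest held at most 0.018% of a library's counts).

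The test on these counts was the quasi-likelihood test of edgeR 4.0.16, run in R 4.3.3 (glmQLFit and glmQLFTest, two-sided, TMM, filterByExpr, 9 libraries in 1 fit, group as the only term), with Benjamini-Hochberg adjustment over 18211 genes and a threshold of 0.05; every adjusted p comes from this test unless another fit is named. CPM uses TMM-scaled library sizes, levels per kilobase divide CPM by summed exon length, and SE is that of the fit. Promoter windows are RefSeq's, on GRCm38.p6, and 24 members matched.

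The replicate numbers in the titles were checked for pairing from the data. Deviations from group means of same-numbered R26 normoxia and R26 hypoxia libraries correlated at 0.52, 0.53 and 0.85, although R26 hypoxia 1 correlated best with R26 normoxia 2 (0.56). In the other comparisons 2 of 3 correlations of same-numbered libraries were negative. The deeper library had number 3 in both R26 groups, so block and depth overlap there and cannot be told apart. The deeper library HIF1a-ko hypoxia 1 correlated at 0.79 with R26 hypoxia 3 and at 0.82 with R26 normoxia 3. With R26 hypoxia 1 and R26 normoxia 1 it correlated at -0.63 and -0.60. A pairing by number is therefore not established, and the blocked value is printed where it changes a call. No 2 libraries agreed within sampling noise (chi-square per degree of freedom 6.73 to 69.9). What the test recovers was checked on simulated data with 3 libraries a group. For HIF1a-ko hypoxia against R26 hypoxia, it recovered 47 to 55 of 66 genes changed 4-fold and 17 to 32 of 67 changed 1.5-fold, over 4 draws. The changed genes were drawn from all levels and were far fewer than the 8334 called in the data. These recoveries therefore do not give the power for the members.

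The members, lists and rule for naming genes were chosen with earlier results of these data known, and 1 gene of the replication list is not reported here. Named are all 36 members, Hif1a, up to 3 genes of each pathway list with the largest changes called in HIF1a-ko against R26 hypoxia, and the highest gene of each cell type list; Cul1, the 9 replication and 4 mitotic genes called in low oxygen, and the markers under 1 CPM, were named after their values were seen, to complete small counts. Alternatives were DESeq2's size factors, no filter, DESeq2 1.42.0, the replicate block, only the groups compared, depth as a term, the 6 less deep libraries and leaving out each library.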

Additional observations from a re-analysis of the deposited data

How the results depend on the processing

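No called log2 fold change of the 36 members changed sign under any alternative run. For low oxygen in the R26 cells, members higher numbered 5, and 11 with the replicate block; members lower numbered 3, and 6 with DESeq2, 7 with the replicate block, 7 with the depth class as a term and 6 in the 6 less deep libraries. Leaving out 1 library gave 3 to 6 higher and 2 to 6 lower there. Of all genes, 4591 were called in that comparison, 7259 with the replicate block and 6959 with the depth term. With DESeq2 5058 were called, and 5453 in the 6 less deep libraries. Against R26 normoxia, 1 member (Tfdp2) was lower in HIF1a-ko hypoxia with the depth term and 0 in the other fits. Mitotic targets higher in low oxygen numbered 4, and 9 with the replicate block, 7 with the depth term and 2 to 7 leaving out 1 library. In HIF1a-ko against R26 hypoxia the replicate block, where a pairing by number is not established, changed no member's call. Against R26 normoxia the block ended the calls of Cdk4 (adjusted p = 0.095) and Cdk6 (0.052). The excess of S and G2/M over G1 level in HIF1a-ko hypoxia was 1.55, 1.41 with means in place of medians and 1.16 with D-type cyclins alone as the G1 list. The cause of these changes was not tested.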
